A study of Homo sapiens with 10 samples.

Results

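The DEAD and DEAH box RNA helicases were taken as every probe whose annotated gene symbol began with DDX or DHX and a digit. The array carried 58 such probes for 52 genes among 24105 probes. Of these, 51 probes for 47 genes were detected, with a detection score of 0.99 or more on at least 1 array, among 14018 detected probes. The score runs from 0 to 1 and rises with the distance of a signal from that of the negative control probes. RNA came from MDA-MB-435, an established human melanoma line, and 2 arrays, called biological duplicates by the submitters, stood for each of 5 groups. Cells had received hepatocyte growth factor (HGF) for 1, 6 or 24 h, had been transduced with integrin beta-4 (ITGB4) so that its expression was stably raised, or were untreated. The dose of HGF, the vector and promoter of the ITGB4 construct and the number of transduced clones were not given in the sources used here. Nothing else in the labels separated the groups, and all of them shared the same parental line.

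DEAD and DEAH box proteins, named after a conserved motif in which they bind and hydrolyse ATP, unwind short RNA duplexes or strip proteins from RNA. They act in nearly every step of RNA life, from transcription and splicing to export, translation and decay. A large set works in the nucleolus, where ribosomal RNA is transcribed, cut, modified and assembled with ribosomal proteins, and growth factors are known to raise ribosome production in cells that are about to divide. HGF signals through the MET receptor tyrosine kinase. On these arrays, MET read 78.5 to 112 and was detected on 6 of 10 arrays, while ITGB4 read 6788 and 5023 on the ITGB4 arrays, against 59.6 to 63.9 on the other 8.

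The detected helicases were divided by known role into 16 probes for 15 nucleolar genes and 35 probes for 32 other genes. The nucleolar genes were DDX10, DDX21, DDX24, DDX27, DDX31, DDX47, DDX49, DDX50, DDX51, DDX52, DDX54, DDX55, DDX56, DHX33 and DHX37. The others were 11 genes of the spliceosome (DDX23, DDX39B, DDX41, DDX42, DDX46, DHX8, DHX15, DHX16, DHX35, DHX38 and the DHX15 relative DHX40), 8 of mRNA export, translation and decay (DDX3X, DDX6, DDX19A, DDX19B, DDX39A, DHX29, DHX34 and DHX36) and 5 co-factors of transcription and microRNA processing (DDX1, DDX5, DDX17, DDX20 and DHX9). DHX58 and DDX60 act in innate sensing of RNA, DDX28 in mitochondria and DDX11 on DNA. DDX43 is best known from the germ line and tumours, and DHX32, DHX57 and DDX11L2 were left without a role. Of the 51 probes, 39 were detected on all 10 arrays and 12 on 1 to 9 of them. Some roles overlap, since DHX15, for example, also acts in ribosome assembly.

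Of the 58 probes, 7 were detected on no array. They were those for DDX3Y, DDX4, DDX25, DDX53 and DDX59 and 2 of the 3 for DDX31. DDX4 and DDX25 are known from germ cells. The lowest highest score among detected members was 0.997, for DDX28 on 1 array, and the highest among the undetected was 0.948, for DDX59. RIGI, once called DDX58, carried another symbol and was not counted.

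Each array detected 10226 to 11899 probes, including 42 to 48 of the helicase probes, and a probe was read from a median of 26 to 32 beads. Signals are scanner intensities after quantile normalisation between arrays, in arbitrary units, so that a value is relative to all probes of its array. The signal at the detection limit was 89.6. Of 9 melanocyte markers on the array, 9 were detected and 8 on all arrays. Of 8 epithelial markers, 3 were detected, KRT18 on all arrays, while CDH1, EPCAM, ESR1, GATA3 and KRT19 were detected on none. Of 6 fibroblast markers, 3 were detected, DCN and LUM on all arrays, while COL1A1, COL1A2 and PDGFRB were detected on none. Over all probes of an array, the 25th percentile of the score was 0.00814 to 0.0225 on replicate 1 of the untreated and HGF groups. On the other 6 arrays it was 0.249 to 0.388. For some genes and for the medians at 6 h, differences are therefore also given within the replicate 1 (low-score) and the replicate 2 (high-score) arrays. Whether the 2 samples of a group came from separate cultures was not stated further. The p-values come from limma and rest on a spread pooled over the 5 groups.

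After 6 h of HGF, 4 helicases rose and 0 fell relative to untreated cells. They were the nucleolar DHX37, DDX51 and DHX33 and the mRNA export factor DDX39A, with 1.57-fold to 2.49-fold higher signals. These were 4 of 51 probes (7.84%), read against 1.9% of all 14018 probes called in this comparison and 0.97% called higher and 0.935% lower, at a Benjamini-Hochberg adjusted p under 0.05. By role, 3 of 16 nucleolar and 1 of 35 other probes were called. The RNA was from whole cultures, so more expressing cells and more RNA per cell cannot be told apart.

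DHX37, the helicase that frees the U3 small nucleolar RNA from the precursor of the small ribosomal subunit, read 548 and 582 on the HGF 6 h arrays, against 249 and 264 on the untreated arrays. Its difference was 1.14 ± 0.17 on the log2 scale (SE, n = 2 arrays per group), or 2.21-fold, with an adjusted p of 0.009 in limma, and the low-score and the high-score pair each gave 1.14. Both HGF 6 h arrays lay above all 8 other arrays, the nearest of which was HGF 1 h replicate 1 at 397. DDX51, which acts in the maturation of the large subunit's ribosomal RNA, read 181 and 178 at 6 h of HGF, against 111 and 109.9 in untreated cells. That was a difference of 0.70 ± 0.16 (SE, adjusted p = 0.044 in limma), with the other 6 arrays between 104 and 136. DHX33, known from transcription of ribosomal RNA genes and from translation, read 339.7 and 321 at 6 h of HGF and 207 and 213 in untreated cells. Its difference was 0.65 ± 0.15 (SE, adjusted p = 0.047 in limma), 0.71 in the low-score pair and 0.59 in the high-score pair. Neither gene's 6 h arrays overlapped with any other array.

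DDX39A, a close relative of the export and splicing factor DDX39B, carried the largest difference of the 51 probes at 6 h. Its probe, which was designed for all isoforms, read 2117 and 2554 on the HGF 6 h arrays, against 874 and 998 on the untreated arrays. The difference was 1.32 ± 0.23 (SE, n = 2 arrays per group, adjusted p = 0.019 in limma), or 2.49-fold, and 1.28 and 1.35 within the low-score and the high-score arrays. The highest of the other 8 arrays was HGF 1 h replicate 2 at 1276, so the 6 h arrays stood apart. DDX39B, measured by 2 probes, differed by 0.18 ± 0.17 and 0.25 ± 0.17 (SE) and was not called. Probe sequences were not used here, so cross-hybridisation between such close relatives was not checked.

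The 4 calls depended on the arrays that carried them and in part on the normalisation. Without an untreated or an HGF 6 h array, 1 array stood for a compared group. In those fits no helicase was called, and few or no probes of the whole array were. The 4 differences kept their direction. Without an ITGB4 or an HGF 1 h array, DHX37 and DDX39A stayed called, and fewer of all probes were called than in the full fit. Without an HGF 24 h array, more of all probes were called, and DDX49 and DDX56 joined the 4. With the deposited rank-invariant normalisation, DHX37, DDX51 and DHX33 were called higher, DDX39A was not called (adjusted p = 0.056 in limma) and DHX58 was called lower.

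**Figure D1:**
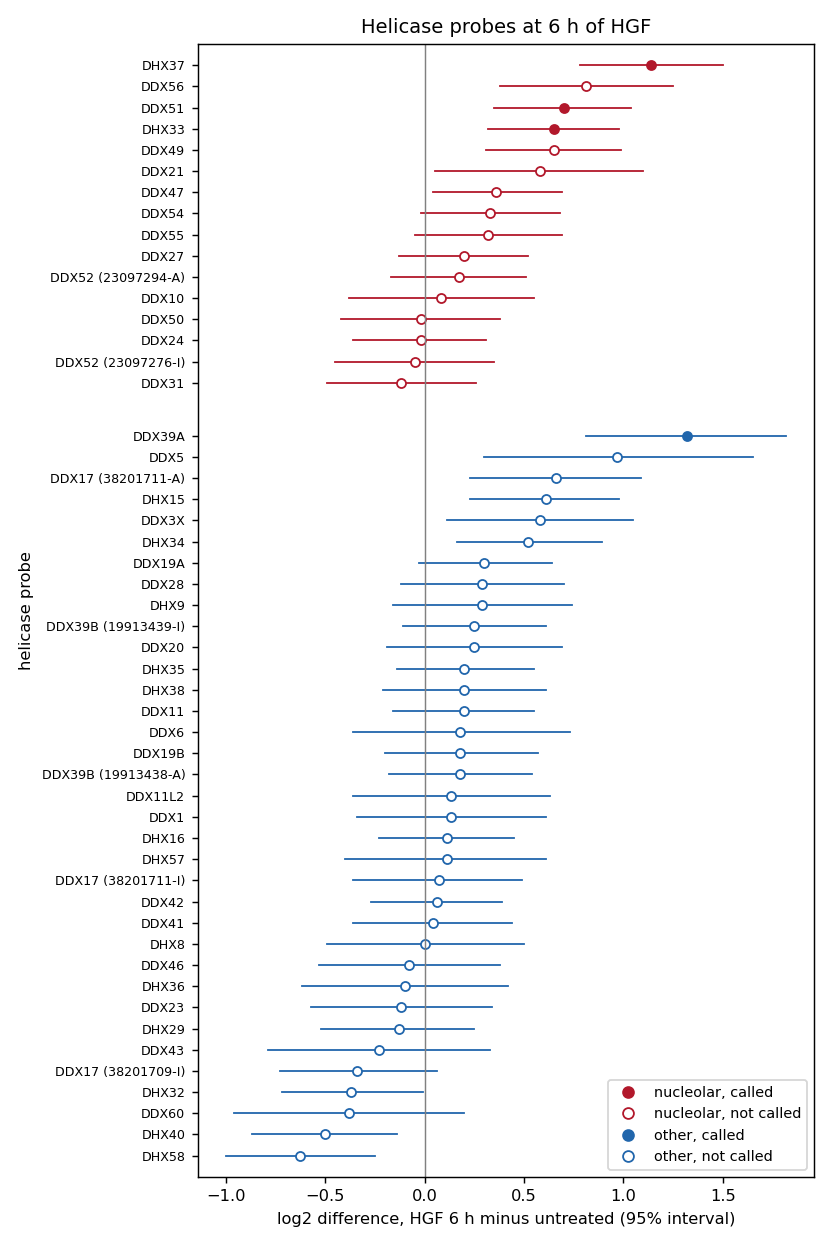
Log2 difference of each of the 51 detected helicase probes, HGF 6 h minus untreated, along the horizontal axis, with lines for the 95% interval of the fit, the 16 nucleolar probes in red above the 35 others in blue and filled points for the 4 called. The nucleolar values run between -0.12 and 1.14 and the others between -0.63 and 1.32.

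Several further nucleolar helicases were high on both 6 h arrays without passing the test. DDX56, which acts in the assembly of the large subunit, read 1162 and 1441 at 6 h of HGF, against 712 and 760.2 in untreated cells (0.81 ± 0.20, SE, adjusted p = 0.057 in limma). DDX49, a factor of ribosomal RNA processing, read 372 and 359.5 at 6 h of HGF, against 234 and 231 in untreated cells (0.65 ± 0.16, SE, adjusted p = 0.053 in limma). DDX21, an abundant nucleolar helicase that links transcription of ribosomal RNA to its processing, read 1530.3 and 1412 at 6 h of HGF and 1138 and 854 in untreated cells (0.58 ± 0.24, SE, adjusted p = 0.25 in limma). The 6 h arrays did not overlap with the untreated ones for any of these 3 genes, and the untreated pair of DDX21 was wide. The small-subunit factor DDX47 (0.36 ± 0.15) and the large-subunit factors DDX54 (0.33 ± 0.16) and DDX55 (0.32 ± 0.17) had smaller differences with adjusted p of 0.25 to 0.40. DDX54 was dim, since it read 75.7 to 117 and was detected on 4 arrays.

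The remaining nucleolar members differed little at 6 h. DDX27, a partner of the PES1 complex, differed by 0.20 ± 0.15 (SE) and read 693 to 968 over the 10 arrays. DDX10, DDX24 and DDX50, the last a paralogue of DDX21, differed by 0.08, -0.02 and -0.02 and read 271 to 496, 599 to 881 and 335 to 564. DDX31 differed by -0.12 ± 0.17 (SE). DDX52 had 2 probes, with 0.17 ± 0.16 for the one on all isoforms and -0.05 ± 0.19 for the one on a single isoform. The median over the 16 nucleolar probes was 0.33, with 12 of 16 above 0, against 0.13 and 25 of 35 for the other helicases and 0.01 and 52.4% for all 14018 probes. Within the low-score and the high-score arrays the nucleolar median was 0.37 and 0.23, and that of the other helicases 0.18 and 0.03. Both 6 h arrays lay above both untreated arrays for 23 of 51 probes, 11 of 16 nucleolar and 12 of 35 other, against 20.7% of all probes, and below them for 5 of 51, 0 of them nucleolar, against 23.9% of all.

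Outside the nucleolus, the DDX5 and DDX17 pair and DHX15 had the next largest positive differences at 6 h after DDX39A. DDX5 (p68), a co-activator of transcription and part of the microRNA processing complex, read 1316 and 1505 at 6 h of HGF and 865 and 595 in untreated cells, which themselves were far apart (0.97 ± 0.31, SE, adjusted p = 0.13 in limma). Its low-score pair gave 0.61 and its high-score pair 1.34. DHX15, which takes spliceosomes apart and also works in ribosome assembly, read 1457 and 1516 at 6 h of HGF and 970.0 and 982 in untreated cells (0.61 ± 0.17, SE, adjusted p = 0.096 in limma). The groups did not overlap for either gene, yet neither passed the test. DDX3X, a translation factor, differed by 0.58 ± 0.22 (SE, adjusted p = 0.19 in limma), and DHX34, which acts in nonsense-mediated decay, by 0.52 ± 0.17 (SE, adjusted p = 0.13 in limma). The median was 0.24 over the 8 probes of export, translation and decay, 0.25 over the 7 of transcription and microRNA processing and 0.08 over the 12 of the spliceosome.

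Signals below the untreated level at 6 h were few. DHX58 (LGP2), a regulator of the RIG-I pathway that senses viral RNA, read 174 and 165 at 6 h of HGF, against 252 and 271 in untreated cells (-0.63 ± 0.17, SE, adjusted p = 0.084 in limma). DHX40 read 225 and 215 at 6 h of HGF and 351 and 276 in untreated cells (-0.50 ± 0.17, SE, adjusted p = 0.15 in limma). DHX32 differed by -0.37 ± 0.17 (SE, adjusted p = 0.30 in limma). Both 6 h arrays lay below both untreated arrays for these 3 genes, for DHX29 and for 1 DDX17 probe, and none of the 5 was called. Of the 51 probes, 16 had an unadjusted p under 0.05 (13 higher), against 16% of all probes.

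**Figure D2:**
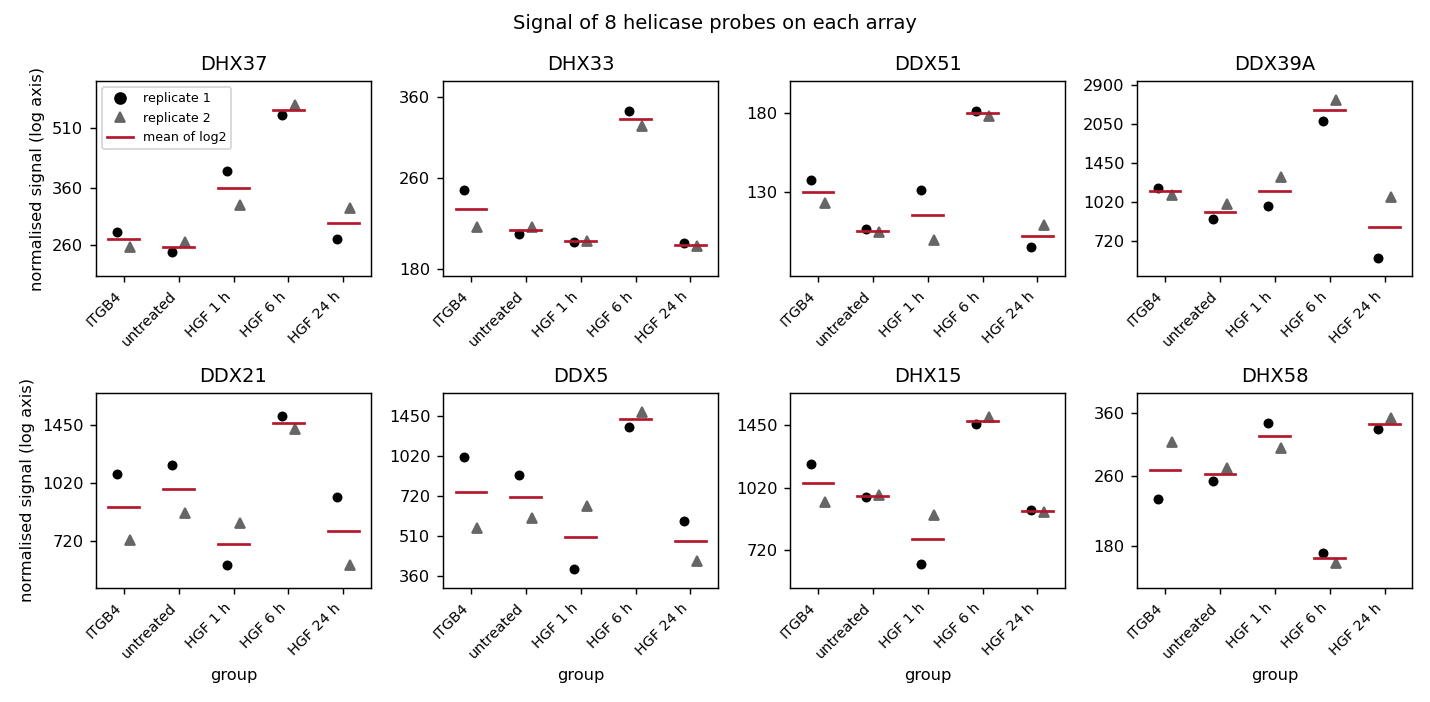
Normalised signal (arbitrary units, log axis) of 8 helicase probes on each of the 10 arrays, with groups along the horizontal axis, circles for replicate 1, triangles for replicate 2 and red lines for the mean of the log2 values. The HGF 6 h arrays are the highest of all 10 for DHX37, DHX33, DDX51, DDX39A, DDX21, DDX5 and DHX15 and the lowest for DHX58.

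Other markers also differed from untreated cells at 6 h, and in part at 1 h, at 24 h and in ITGB4 cells. The summed signal of the 9 detected melanocyte markers was 22275 and 23432 on the HGF 6 h arrays, against 29701 and 32891 on the untreated arrays. That of the 3 detected fibroblast markers was 625 and 729 at 6 h of HGF, against 953 and 1031 in untreated cells, and that of the 3 detected epithelial markers 707 and 784, against 584 and 611. At 1 h and 24 h, the melanocyte sum was 29386 and 25983, then 29162 and 24467. The fibroblast sum was 658 and 785 at 1 h and 829 and 683 at 24 h. The epithelial sum was 753 and 679 at 1 h and 514 and 734 at 24 h. On the ITGB4 arrays, the melanocyte sum was 27143 and 26888 and the fibroblast sum 846 and 923, all below both untreated arrays. The epithelial sum there was 639 and 597. The part of these markers in the helicase values was not tested.

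Promoters of the members that were called at 6 h, and of DDX5, which had the largest difference between HGF times, are shown because these genes moved at the same time point. RefSeq promoters of build GRCh38.p14, 250 bases before to 50 after the annotated start, were matched by symbol for 42 of the 47 detected helicase genes, and DHX33 was not among them. Capitals mark CACGTG, the E-box hexamer recognised by MYC and related factors, which reads alike on both strands, and CCGGAAG or its reverse complement CTTCCGG, the core recognised by ETS factors. The motifs do not overlap each other. Each sequence is given 5′ to 3′ on the gene's own strand, which is the minus strand for all 4.
DHX37 chr12:124989082-124989381: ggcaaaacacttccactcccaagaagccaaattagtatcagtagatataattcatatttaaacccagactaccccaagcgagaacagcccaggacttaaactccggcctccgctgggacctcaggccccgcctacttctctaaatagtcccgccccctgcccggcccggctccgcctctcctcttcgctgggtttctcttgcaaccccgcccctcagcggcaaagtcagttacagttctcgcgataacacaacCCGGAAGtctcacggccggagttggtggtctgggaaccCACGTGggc
DDX51 chr12:132144270-132144569: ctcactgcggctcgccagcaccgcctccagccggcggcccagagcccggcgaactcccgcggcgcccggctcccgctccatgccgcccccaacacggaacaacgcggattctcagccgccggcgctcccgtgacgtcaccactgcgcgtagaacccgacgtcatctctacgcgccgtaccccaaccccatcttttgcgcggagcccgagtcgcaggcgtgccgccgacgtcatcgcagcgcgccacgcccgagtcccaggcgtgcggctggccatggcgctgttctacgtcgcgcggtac
DDX39A chr19:14419334-14419633: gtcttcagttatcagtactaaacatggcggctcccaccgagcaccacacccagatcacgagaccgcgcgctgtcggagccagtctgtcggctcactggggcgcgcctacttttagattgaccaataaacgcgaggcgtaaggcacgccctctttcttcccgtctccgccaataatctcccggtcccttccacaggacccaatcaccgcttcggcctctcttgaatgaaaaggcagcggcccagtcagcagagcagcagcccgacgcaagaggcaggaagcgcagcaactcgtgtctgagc
DDX5 chr17:64506589-64506888: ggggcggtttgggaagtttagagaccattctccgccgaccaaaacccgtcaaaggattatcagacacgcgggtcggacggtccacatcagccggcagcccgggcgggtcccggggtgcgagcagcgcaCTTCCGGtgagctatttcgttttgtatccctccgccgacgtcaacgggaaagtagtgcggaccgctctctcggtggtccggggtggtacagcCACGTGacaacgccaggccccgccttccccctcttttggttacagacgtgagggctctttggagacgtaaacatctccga
DHX37 and DDX5 held 1 match of each motif in this window, and DDX51 and DDX39A held neither. CACGTG was found in 3 of 12 nucleolar promoters (25%), in 5 of 30 promoters of other helicases (16.7%) and in 7.43% of all 27305 promoters of the same length. CCGGAAG on either strand was found in 7 of 12 (58.3%), 12 of 30 (40.0%) and 10.7%. The 3 nucleolar promoters with CACGTG were those of DDX31, DDX54 and DHX37, of which only DHX37 was called at 6 h. The 27305 promoters were not limited to genes detected here. A match is a description of the letters and shows no binding.

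Between HGF times, most of the helicases that were high at 6 h stood above their 1 h and 24 h levels. Relative to 1 h, 11 of 51 probes were called at 6 h, 10 higher and 1 lower (21.6%), against 4.67% of all probes, 2.24% higher and 2.43% lower. Of these, 4 were nucleolar (DDX21, DDX51, DHX33 and DHX37) and 7 were not (DDX1, DDX3X, DDX5, DDX17, DDX39A and DHX15 higher, DHX58 lower). At 24 h relative to 6 h, 12 of 51 probes were called, 11 lower and 1 higher (23.5%), against 8.31% of all probes, 4.07% lower and 4.24% higher. These were DDX3X, DDX5, DDX17, DDX21, DDX39A, DDX51, DDX56, DHX15, DHX33, DHX34 and DHX37, which fell, and DHX58, which rose. Both 24 h arrays lay below both 6 h arrays for 25 of 51 probes, 11 of 16 nucleolar and 14 of 35 other, against 20.3% of all probes. They lay above both 6 h arrays for 6 of 51, against 22.5% of all. The 6 h arrays stand in both comparisons and in that with untreated cells, so the 3 sets of calls are not independent of one another.

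DDX5 had the largest differences between times, with signals of 865 and 595 untreated, 382 and 665 at 1 h, 1316 and 1505 at 6 h and 581 and 411 at 24 h. It was 1.48 ± 0.31 higher at 6 h than at 1 h (log2, SE, adjusted p = 0.022 in limma) and fell by 1.53 at 24 h relative to 6 h (SE 0.31, adjusted p = 0.010 in limma). Only the 6 h arrays stood clear of the others, and the replicates of each other group were far apart. The DDX5 difference of 1 h from untreated was -1.18 in the low-score pair and 0.16 in the high-score pair. DDX21 read 1138 and 854 untreated, 627 and 803 at 1 h, 1530.3 and 1412 at 6 h and 941 and 626 at 24 h. It rose by 1.05 ± 0.24 (SE, adjusted p = 0.029 in limma) at 6 h relative to 1 h, and both 1 h arrays lay below both untreated ones. The difference of 1 h from untreated was -0.86 in its low-score pair and -0.09 in its high-score pair.

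Other profiles differed in what preceded 6 h. DHX37 read 249 and 264 untreated, 397 and 326 at 1 h, 548 and 582 at 6 h and 269 and 322 at 24 h, so that its 1 h arrays already lay above both untreated ones (0.49 on the log2 scale, not called). DHX33, in contrast, stayed between 197 and 213 on the untreated, 1 h and 24 h arrays and was high only at 6 h. DDX39A read 987 and 1276 at 1 h and 619 and 1068 at 24 h. Its 24 h replicates were the farthest apart of its groups. It fell by 1.52 at 24 h relative to 6 h (SE 0.23, adjusted p = 0.0028 in limma), with -1.77 in the low-score pair and -1.26 in the high-score pair.

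DHX15, DDX3X and the all-isoform probe of DDX17 were below untreated on average at 1 h and above it at 6 h. DHX15 read 970.0 and 982 untreated, 667 and 878 at 1 h, 1457 and 1516 at 6 h and 899 and 892 at 24 h. It rose by 0.96 ± 0.17 (SE, adjusted p = 0.012 in limma) at 6 h relative to 1 h. DDX3X read 858 and 612 untreated, 520.3 and 547 at 1 h, 1094 and 1072 at 6 h and 585 and 445 at 24 h. Both its 1 h and its 24 h arrays lay below the untreated ones, and the rise at 6 h relative to 1 h was 1.02 ± 0.22 (SE, adjusted p = 0.022 in limma). DDX1, which acts in tRNA splicing, read 1758 and 1417 untreated, 886 and 1026 at 1 h, 1922 and 1557 at 6 h and 1657 and 1034 at 24 h. Its rise of 0.86 ± 0.22 (SE, adjusted p = 0.045 in limma) at 6 h relative to 1 h came with a low 1 h level rather than a 6 h level above untreated (0.13 ± 0.22).

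DHX58 ran the other way. Its signals were 252 and 271 untreated, 342 and 301 at 1 h, 174 and 165 at 6 h and 331 and 351 at 24 h. It fell by 0.92 at 6 h relative to 1 h (SE 0.17, adjusted p = 0.014 in limma) and rose by 1.01 ± 0.17 (SE, adjusted p = 0.0045 in limma) at 24 h relative to 6 h, and the 6 h arrays were the lowest of all 10. DDX60, the other RNA sensing member, was dim, with signals of 71.4 to 142, and was not called in any comparison. DHX34 read 140.5 and 142 at 24 h, against 204 and 243 at 6 h, and DDX56 read 639 and 989 at 24 h, against 1162 and 1441 at 6 h. Both were called lower at 24 h relative to 6 h (-0.66 and -0.70) and neither was called at 6 h relative to 1 h.

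At 6 h relative to 1 h, no helicase stayed called without HGF 1 h replicate 1, HGF 6 h replicate 1 or HGF 6 h replicate 2. Few or no probes of the whole array were called in those fits. Some helicases stayed called without HGF 1 h replicate 2, where the share of all probes was near that of the full fit. At 24 h relative to 6 h, fewer helicases stayed called without 1 of the HGF 6 h or HGF 24 h arrays, and fewer of all probes were called. In each of these 4 fits 1 array stood for a compared group. DDX39A, DHX37 and DHX58 were called in each of these 4 fits. The deposited rank-invariant normalisation set the median of all probes at 0.14 for 6 h relative to 1 h. With it, 5 helicase probes were called in that comparison, against 3.19% of all probes. Of these, 4 were higher (DDX3X, DDX51, DHX15 and DHX33) and 1 lower (DHX58).

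**Figure D3:**
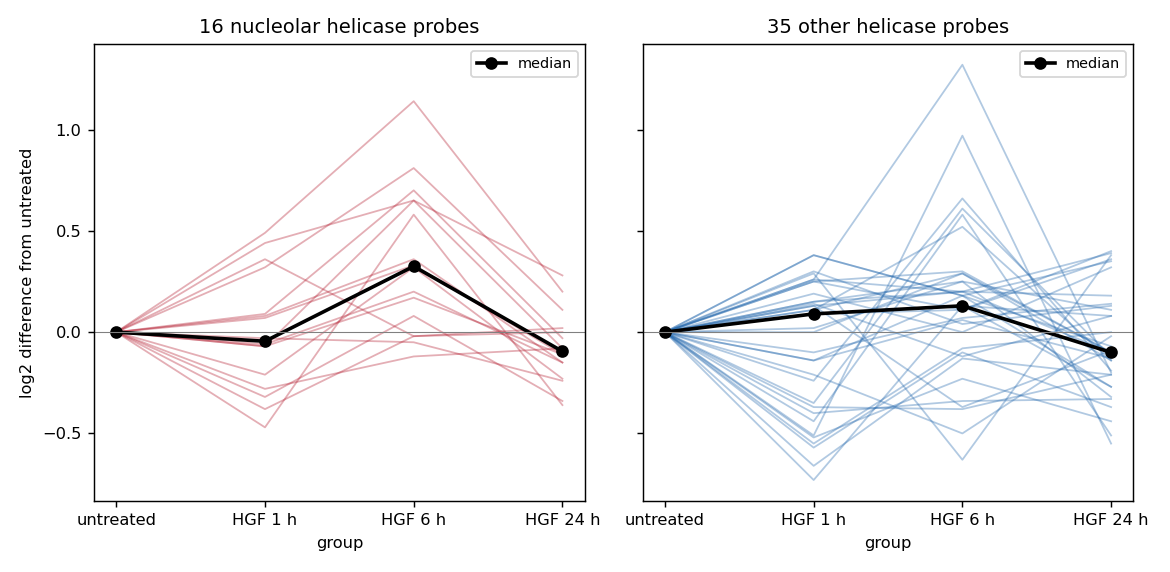
Log2 difference from untreated cells of the 16 nucleolar (left) and 35 other (right) helicase probes along the HGF groups, with a thin line per probe and a black line for the median. Groups are evenly spaced and not drawn to the time scale. The nucleolar median is -0.04 at 1 h, 0.33 at 6 h and -0.10 at 24 h, and that of the others 0.09, 0.13 and -0.10.

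Probes of 1 gene did not always move together. DDX17 (p72), the paralogue and partner of DDX5, had 3 detected probes. The all-isoform probe GI_38201711-A read 952 and 964 untreated, 639 and 1025 at 1 h, 1512 and 1517 at 6 h and 846 and 829 at 24 h. It was called at 6 h relative to 1 h (0.90 ± 0.20, SE, adjusted p = 0.026 in limma) and at 24 h relative to 6 h (-0.85 ± 0.20, SE, adjusted p = 0.019 in limma), and its 6 h difference from untreated was 0.66 ± 0.20 (SE, adjusted p = 0.11 in limma). The probe GI_38201709-I, designed for 1 isoform, read 147 and 129.6 at 6 h of HGF, against 193 and 157 in untreated cells (-0.34 ± 0.18, SE, adjusted p = 0.42 in limma). The other isoform probe, GI_38201711-I, was detected on 4 arrays, with signals of 67.8 to 101, and differed by 0.07 ± 0.20 (SE) at 6 h. Only the all-isoform probe had its highest signals at 6 h, and the difference between the probes was not tested. Levels of different probes cannot be compared, since each has its own brightness.

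**Figure D4:**
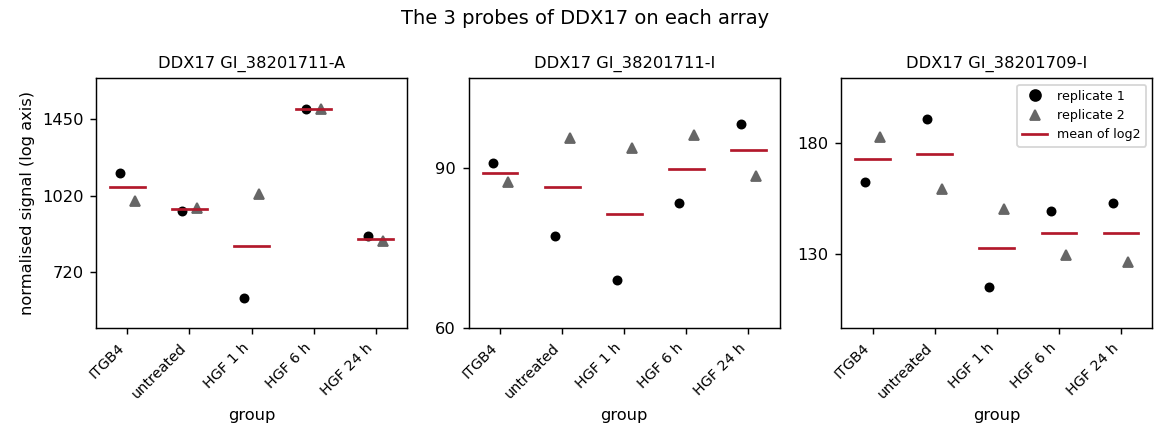
Normalised signal (arbitrary units, log axes of different range) of the 3 detected DDX17 probes on each array, with circles for replicate 1, triangles for replicate 2 and red lines for the mean of the log2 values of a group. The all-isoform probe GI_38201711-A reads 1512 and 1517 at 6 h of HGF, against 952 and 964 in untreated cells, and neither isoform probe peaks at 6 h.

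After 1 h of HGF, 0 of 51 helicase probes were called, as for all probes (0% called by limma). An unadjusted p under 0.05 was found for 9 of them (4 higher), against 13.5% of all probes, and the smallest adjusted p of a member was 0.20. The largest differences were decreases. DDX1 read 886 and 1026 at 1 h of HGF, against 1758 and 1417 in untreated cells (-0.73 ± 0.22, SE, adjusted p = 0.21 in limma). DHX29, which helps ribosomes scan structured leaders, read 127 and 162 at 1 h of HGF, against 226 and 227 in untreated cells (-0.66 ± 0.18, SE, adjusted p = 0.20 in limma). DHX36, which unwinds G-quadruplexes, read 404 and 458 at 1 h of HGF, against 707 and 580.2 in untreated cells (-0.57 ± 0.24, SE, adjusted p = 0.32 in limma). The groups did not overlap for any of these 3, and both 1 h arrays lay below both untreated ones for 16 of 51 probes, against 20.1% of all probes, and above them for 10, against 24.1%.

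After 24 h of HGF, 0 of 51 probes were called and 0% of all probes. An unadjusted p under 0.05 was found for 4 members (3 higher), against 5.71% of all probes, and no member had an adjusted p under 0.86. DDX5 had the largest difference (-0.55 ± 0.31, SE), with 581 and 411 at 24 h of HGF, against 865 and 595 in untreated cells. DDX3X followed (-0.51 ± 0.22, SE), with 585 and 445 at 24 h, against 858 and 612. For DDX43, a helicase found in many tumours, the signals were 298 and 189 at 24 h and 397 and 262 in untreated cells (-0.44 ± 0.26, SE), and the groups overlapped, unlike those of DDX5 and DDX3X. Both 24 h arrays lay below both untreated arrays for 12 of 51 probes, against 14.7% of all probes, and above them for 6, against 14.9%. At 24 h relative to 1 h, 0 of 51 probes were called, as for all probes (0%), with 6 at an unadjusted p under 0.05, against 6.33% of all. Both 24 h arrays lay below both 1 h arrays for 12, against 14.4% of all, and above them for 9, against 11.2%. DHX37 was 0.20 and DDX39A -0.20 from untreated at 24 h, neither called.

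In the ITGB4 cells, 0 of 51 helicase probes were called, against 0.00713% of all probes, which was the ITGB4 probe alone. An unadjusted p under 0.05 was found for 0 members, against 0.835% of all probes. The ordinary pooled-variance test, run as an alternative to limma, called 0 of 51 in each of the 4 comparisons with untreated cells. Of all probes it called 0% at 1, 6 and 24 h of HGF and 0.00713% in ITGB4 cells. The largest differences from untreated cells were -0.46 ± 0.26 for DDX43, 0.37 ± 0.23 for DHX57 and -0.35 ± 0.27 for DDX60 (SE, n = 2 arrays per group). DDX43 read 273 and 201 on the ITGB4 arrays, against 397 and 262 on the untreated arrays, and the groups overlapped. DHX57 read 99.8 and 93.2, against 84.5 and 65.6, and DDX60 read 109 and 93.1, against 142 and 116, all near the detection limit. The 4 helicases called at 6 h of HGF read 280.1 and 257 (DHX37), 247 and 213 (DHX33), 136 and 124 (DDX51) and 1158 and 1088 (DDX39A) on the ITGB4 arrays, none of them called, and the 95% interval of the DHX37 difference ran between -0.29 and 0.43. Both ITGB4 arrays lay above both untreated arrays for 10 of 51 probes, against 13.6% of all probes, and below them for 3, against 12.1%. The median was 0.05 over the nucleolar and 0.05 over the other helicase probes. The deposited value table and the scanner table disagreed for ITGB4 replicate 2, with a Spearman correlation of 0.968 across probes, and the scanner values were used.

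A pair of lists of related genes, chosen with earlier results of these data known, were set beside the members. Each listed gene was read from its brightest detected probe, whereas the helicases and the shares of all probes count every detected probe. Of 33 tested ribosome biogenesis factors that are not DDX or DHX proteins, 12 rose and 0 fell at 6 h of HGF relative to untreated cells. Of all probes, 0.97% were called higher and 0.935% lower. The median of the 33 was 0.64. The largest rises were those of NOP56 and NOP16, of the nucleolar ribonucleoprotein and large-subunit assembly machinery (1.26 ± 0.16 and 1.14 ± 0.19, SE), PES1, of large-subunit assembly (0.99 ± 0.16), and UTP14A, of the small-subunit precursor (0.98 ± 0.18), with adjusted p of 0.0077 to 0.022 in limma. Of these factors, 21 fell and 0 rose at 24 h relative to 6 h, against 4.07% and 4.24% of all probes. At 1 h, at 24 h and in ITGB4 cells, 0 were called relative to untreated cells, against 0%, 0% and 0.00713% of all probes. In the same order, 4, 3 and 0 of the 33 had an unadjusted p under 0.05, against 13.5%, 5.71% and 0.835% of all. Of 16 tested RNA helicases outside the DDX and DHX symbols, 0 were called by limma relative to untreated cells in any group. Among them were EIF4A1 to EIF4A3, UPF1 and RIGI. The median of the 16 was 0 at 6 h, where 1.9% of all probes were called. At an unadjusted p under 0.05 there were 4 of the 16 at 1 h, 0 at 6 h, 4 at 24 h and 0 in ITGB4 cells. The shares of all probes were 13.5%, 16%, 5.71% and 0.835%, in the same order. DICER1, which has a helicase domain and cuts microRNA precursors, was the only one of the 16 called between times. It was higher at 6 h than at 1 h (1.04 ± 0.18, SE, adjusted p = 0.010 in limma), where 4.67% of all probes were called. It was lower at 24 h than at 6 h (-0.73 ± 0.18, SE, adjusted p = 0.026 in limma), where the share was 8.31%.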

How the data were processed

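RNA levels had been measured on 10 arrays of the Illumina Human-8 V1 type, 2 per group, and groups followed the sample labels. The authors deposited scanner intensities, the mean brightness of the beads of a probe, from BeadStudio 1.5.1.3 per the submitters' processing notes, with no background subtraction or normalisation seen in the values. The deposited tables also hold a detection score and, as a column of another kind, bead numbers. A deposited value table of rank-invariant normalised intensities served as an alternative. Its column for ITGB4 replicate 2 was no straight line of that array's scanner values, unlike the other 9. The genome build of the probes and their sequences were not given in the sources used here.

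After setting aside 22 control probes and 9 probes without an intensity on every array, intensities were quantile normalised and brought to the log2 scale without floor or offset. The 14018 probes with a detection score of 0.99 or more on at least 1 array were tested with limma 3.58.1 in R 4.3.3, two-sided, in 1 fit of 5 group means over all arrays (5 residual and 8.16 prior degrees of freedom) and 7 contrasts, with Benjamini-Hochberg adjustment over these probes. The steps were tested on simulated data. The number of arrays limits the precision.

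Symbols came from the platform annotation, and all 58 member probes were matched by Entrez number to RefSeq genes. DDX18 and DHX30 had no probe with that symbol. Members called in any contrast, the 3 with the largest difference from untreated cells in each group and the nucleolar members were named with values, and up to 4 called genes of each related list. The members, roles and lists were chosen with earlier results of these data known, as was the split into low-score arrays (25th percentile of the score under 0.1). Alternatives were normexp correction with an offset of 50, the rank-invariant table, no detection filter, signals floored at 179, the replicate number or the array score as a block, an ordinary pooled-variance test, the brightest probe of a gene, and each array left out. A block on slide or scan date was not run, because the files used give neither.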

Additional observations from a re-analysis of the deposited data

Results flagged for a closer look

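Members whose HGF effect differed between times, by the limma test of the difference itself, were the following. Values are log2 differences, 2 arrays per group, and all had an adjusted p under 0.05 over the 14018 probes tested. At 6 h relative to 1 h, nucleolar helicases were higher by 1.05 (DDX21), 0.72 (DHX33), 0.65 (DHX37) and 0.61 (DDX51), and other helicases by 1.48 (DDX5), 1.05 (DDX39A), 1.02 (DDX3X), 0.96 (DHX15), 0.90 (the all-isoform DDX17 probe) and 0.86 (DDX1). DHX58 differed by -0.92. The test of 24 h relative to 6 h gave nucleolar helicases at -0.94 (DDX21), -0.94 (DHX37), -0.73 (DHX33), -0.73 (DDX51) and -0.70 (DDX56). The other helicases stood at -1.53 (DDX5), -1.52 (DDX39A), -1.09 (DDX3X), -0.85 (the all-isoform DDX17 probe), -0.73 (DHX15) and -0.66 (DHX34), and DHX58 at 1.01. The same 6 h arrays enter both sets of differences.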

How the results depend on the processing

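At 6 h of HGF relative to untreated cells, 4 helicase probes were called, beside 1.9% of all probes. The count became 2 with signals floored at 179 (DHX33 and DHX37, 0.678% of all). It was 13 with the replicate number as a block (7.77%) and 10 with the array score as a block (7.6%). By the ordinary pooled-variance test it was 0, as for all probes (0%). It fell in most fits that left out 1 array and rose without an HGF 24 h array, as did the count of all probes. With normexp correction it was 6 (2.31% of all) and without the detection filter 5 (0.896%). Under the rank-invariant normalisation it was 4 (1.9%), of which 3 were higher (DDX51, DHX33 and DHX37) and 1 lower (DHX58). DDX39A was then not called (1.56, adjusted p = 0.056 in limma). That normalisation called 171 of 266 probes higher over the whole array, against 136 of 267 with the scanner values. At 6 h relative to 1 h, 11 were called, beside 4.67% of all probes. The count was 5 with the rank-invariant table (3.19% of all), 1 with floored signals (0.556%) and 0 by the ordinary test (0%). In most fits with 1 array left out it fell, as did the count of all probes. At 24 h relative to 6 h, 12 were called, beside 8.31% of all. The count was 3 with floored signals (2.26%) and 1 by the ordinary test (0.763%). It fell in each fit with 1 array left out, as did the count of all probes. At 1 h relative to untreated cells, where 0 were called, the replicate block gave 2 (DDX1 and DHX29, both lower), beside 3.05% of all probes.

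The labels share replicate numbers between groups without saying what they pair. Deviations of same-numbered arrays correlated between 0.06 and 0.66 over the 7 comparisons, with 2 pairs each, so the block is given only as an alternative. It called 1089 of all probes at 6 h, against 267 without it, and 427 at 1 h, against 0. Beyond the helicase counts at 1 h and 6 h given above, it changed none by more than 1.5 times.

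The nucleolar median at 6 h (0.33) was 0.49 with the rank-invariant table, beside 0.17 for all probes there, and 0.19 with floored signals. That of the other helicases (0.13) was 0.33 and 0 under the same changes. The nucleolar median was 0 at 24 h with floored signals, against -0.10, and 0.21 in ITGB4 cells with the rank-invariant table, against 0.05. The median of the other helicases at 1 h (0.09) ran between -0.04 and 0.09 with 1 array left out, the lowest without untreated replicate 1. Of 37 named values, 0 turned direction under any alternative, and 26 that limma called were not called by the ordinary test. The causes were not tested. Probes near 89.6, such as those of DDX54, DDX60 and DHX57, have little signal over background and changes in them could be missed. The DDX51 probe was also dim, with 103.6 to 181.4 over the arrays.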
